A study of Mus musculus with 41 samples.

Results

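The comparison concerns the non-epithelial stroma of the thymus (nonTEC) of castrated mice, at day 7 against day 4 after surgery, across all genes. Its members are 6 of the 41 arrays of the series, 3 labelled nonTEC CxD7 and 3 labelled nonTEC CxD4, taken by their labels. All mice were male C57Bl/6, and those of both groups were 9 to 12 months old and surgically castrated. The stroma was sorted as CD45-negative, EpCAM-negative thymus cells, so the gate was set to leave out leukocytes, which carry CD45, and epithelium, which carries EpCAM. For comparison stood 3 arrays of sham-castrated stroma at day 4 and 2 at day 7, of mice of the same age, 3 of untreated middle-aged stroma (9 to 12 months), 3 of untreated young stroma (5 to 6 weeks), and 3 arrays each of the castrated epithelial fraction (TEC, EpCAM-positive) at days 4 and 7. Whether the 3 arrays of a group stand for different mice is not stated in the labels. The p-values therefore rest on array-to-array spread that may be technical, and precision is limited by how few arrays there are.

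The thymus shrinks with age under the influence of sex steroids, and removal of the testes is followed by its regrowth. Its non-epithelial stroma holds fibroblasts, which lay down collagens and make growth factors for the epithelium, endothelium, through which progenitors enter, and pericytes, which wrap the vessels. The comparison asks which stromal transcripts differ between an earlier and a later day of that regrowth.

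The stromal arrays carried the transcripts of their label. Pdgfra, a receptor of fibroblasts, was at 12.30 (day 4) and 12.69 (day 7) in castrated stroma against 7.12 and 6.23 in castrated epithelium. The keratin gene Krt8 was at 8.93 and 8.79 against 13.49 and 13.43. These values are on the deposited log2 scale, which appears to have been set separately in each fraction. Cd3e, a T cell gene that a CD45-negative sort should lack, was nevertheless read at 10.29 and 10.01 in the stroma, while Ptprc, the CD45 gene itself, was below the filter on dim probes. Means over 8 thymocyte markers were 10.24, 9.28 and 8.25 on day 4 arrays 1, 2 and 3, and lay between 8.54 and 8.91 on the day 7 arrays, so day 4 array 1 stood above and day 4 array 3 below the whole day 7 group. The lowest correlation between arrays was 0.965 within day 4 and 0.981 within day 7, against 0.951 to 0.973 between the days.

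Day 7 stroma of castrated mice had histone and endothelial genes among its called falls, and collagen and other matrix genes among its called rises, against day 4 stroma. Of 7771 genes tested, 1089 (14%) passed an adjusted p of 0.05 in limma, 737 of them higher at day 7 (9.48%) and 352 lower (4.53%). Falls were larger than rises: of the 143 called genes that differed by 2-fold or more, 102 were lower and 41 higher, and the median difference was -0.79 among the called lower and 0.65 among the called higher genes, on the log2 scale. All 3 day 7 arrays lay above all 3 day 4 arrays for 1917 genes (24.7%) and below them for 1064 (13.7%). The median difference over all genes tested was 0.07. Rises made up 67.7% of the calls as deposited, 56.2% after quantile normalization and 55.6% with arrays centred on their medians. The count of calls rested on single arrays: it was 495 without day 4 array 1, 456 without day 4 array 2, 1027 without day 4 array 3, 433 without day 7 array 1, 694 without day 7 array 2 and 433 without day 7 array 3, and 664 when all 41 arrays were fitted together.

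**Figure D1:**
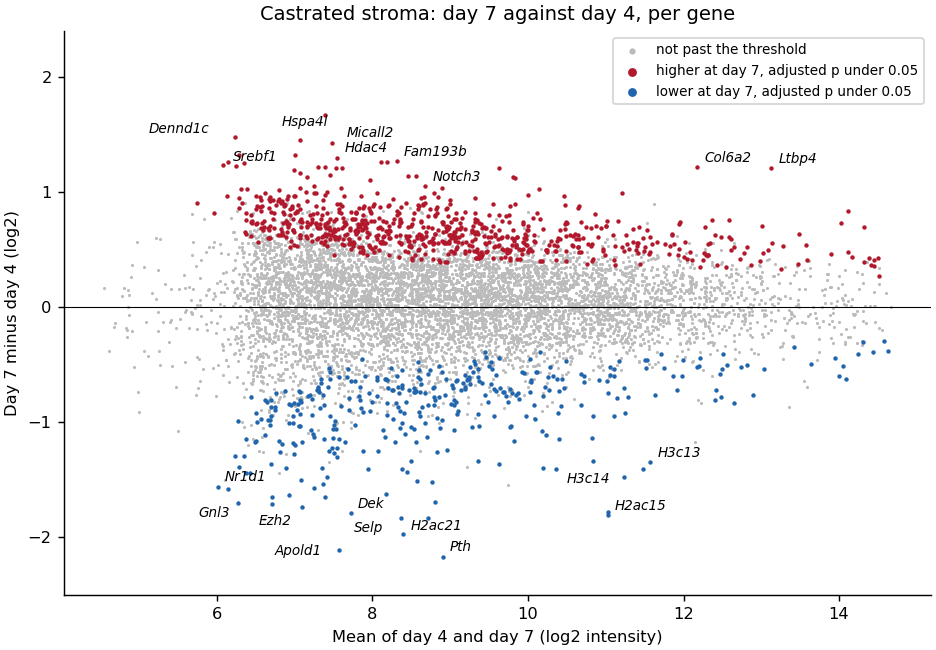
Each point is 1 of the 7771 genes tested, by its mean over the 2 castrated stromal groups (x axis, log2 intensity) and its difference, day 7 minus day 4 (y axis, log2). Blue points, the 352 genes called lower, reach -2.17 (Pth), and red points are the 737 called higher, among which Dennd1c lies at 1.48.

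The genes of largest fall were led by Pth, the parathyroid hormone gene, which read 9.74, 10.28 and 9.94 at day 4 and 6.72, 8.65 and 8.09 at day 7 (-2.17 ± 0.68 SE, adjusted p = 0.0427). Its call held in only 1 of the 6 fits that left out 1 array, that without day 7 array 2 (adjusted p up to 0.182 in the others). Apold1, an early response gene of endothelium, was at 8.54, 8.12 and 9.23 and fell to 6.67, 6.81 and 6.07 (-2.11 ± 0.40, adjusted p = 0.00492). Dek, a chromatin-binding protein gene, was tight in both groups, at 8.87, 8.57 and 8.41 and then 6.71, 6.95 and 6.82 (-1.79 ± 0.22, adjusted p = 0.000270). Ezh2, the methyltransferase of histone H3 in Polycomb complexes, fell by 1.74 ± 0.33 and Hmgb2, a DNA-bending chromatin protein gene, fell by 1.69 ± 0.36. Gnl3, the nucleolar GTPase nucleostemin, fell by 1.70 ± 0.30, and Mfng, which adds sugars to Notch receptors, fell by 1.71 ± 0.42. In these genes no day 7 array reached a day 4 array, as the naming rule required. Apold1 (6.52 on average at day 7), Ezh2 (6.22), Mfng (5.85) and Gnl3 (5.42) ended below 6.73, the level of the filter on dim probes, so the sizes of their falls are uncertain. Apold1, Dek, Ezh2, Hmgb2 and Gnl3 passed in all 6 fits that left out 1 array, and Mfng failed without day 4 array 1 (adjusted p = 0.0647) or day 7 array 1 (0.0572).

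The genes of largest rise were of more varied function, and some started from dim levels. Dennd1c (5.50 on average at day 4), Sorcs2 (5.63), Rapgef6 (5.52), Catsperz (5.73), Sel1l3 (5.46), Hspa4l (6.34) and Srebf1 (6.34) were at day 4 below the filter level of 6.73, so the sizes of their differences are uncertain. Dennd1c, an exchange factor gene of the Rab35 GTPase, rose by 1.48 ± 0.38 and Hspa4l, a heat shock protein gene, by 1.45 ± 0.36, although 1 of 2 Hspa4l probes went the other way. Dennd1c failed without day 4 array 3 (adjusted p = 0.0589) or day 7 array 1 (0.0668), and Hspa4l without the same arrays (0.0537 and 0.0789). Micall2, which links Rab proteins to actin at cell junctions, was at 6.59, 6.70 and 7.01 and rose to 8.08, 8.26 and 8.25 (1.43 ± 0.25, adjusted p = 0.00319). Srebf1, a transcription factor of lipid synthesis, rose from 6.18, 6.12 and 6.72 to 7.75, 7.66 and 7.57 (1.32 ± 0.26, adjusted p = 0.00575), and its relative Srebf2, which drives cholesterol synthesis genes, by 0.70 ± 0.15. Of 9 cholesterol synthesis and uptake genes tested, Srebf2 among them, 1 rose and 1 fell (22.2% called, against 14% of all genes), with a median of 0.14. The fall was that of Nsdhl, to a mean of 6.17 (-0.98 ± 0.25, adjusted p = 0.0169), which passed in 3 of the 6 fits that left out 1 array. Hdac4, a histone deacetylase gene, rose by 1.30 ± 0.19, Fam193b by 1.27 ± 0.19, the sorting receptor gene Sorcs2 by 1.32 ± 0.26 and Sel1l3 by 1.24 ± 0.23. The anchoring collagen gene Col7a1 rose by 1.26 ± 0.25. The remaining genes named by the rule were Rapgef6 (1.26 ± 0.35, 1 of 3 probes rising), Tmem164 (1.26 ± 0.29) and Catsperz (1.25 ± 0.36). Of these, Rapgef6 and Catsperz passed in 2 and Tmem164 in 5 of the 6 fits that left out 1 array, with adjusted p up to 0.126, 0.136 and 0.0539 without day 7 array 1.

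Histone genes were uniform in sign. Replication-dependent histone genes lie in clusters, are transcribed mainly during DNA synthesis and supply the core and linker histones that package new DNA. Of 50 histone genes present, a set gathered by symbol after values had been seen, 37 passed the filter on dim probes and 13 did not. All 37 were lower at day 7 (-1.97 to -0.39, median -0.76, against 0.07 over all genes tested), 18 passed the threshold (48.6%, against 4.53% of all genes called lower), 0 rose, and in 24 no day 7 array reached a day 4 array (13.7% of all genes). Their copies are nearly identical, so a probe may read several of them and the members are not independent measurements.

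The promoters below are those of 6 of these genes, the named H3 genes and the H2A genes of largest fall among those named. The named H2A gene H2ac12, which fell by more than the H3 genes, is not shown. They are the 200 bases before the start site from RefSeq (GRCm38.p6), 5′ to 3′ on the strand of the gene, with CCAAT on either strand (read as CCAAT or ATTGG) and TATAAA in capitals.
H3c13, chr3:96268454-96268653, plus strand: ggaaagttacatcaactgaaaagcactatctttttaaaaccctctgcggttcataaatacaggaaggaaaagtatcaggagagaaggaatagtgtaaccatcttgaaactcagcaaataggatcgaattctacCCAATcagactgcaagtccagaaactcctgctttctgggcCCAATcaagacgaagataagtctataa
H3c10, chr13:21717428-21717627, plus strand: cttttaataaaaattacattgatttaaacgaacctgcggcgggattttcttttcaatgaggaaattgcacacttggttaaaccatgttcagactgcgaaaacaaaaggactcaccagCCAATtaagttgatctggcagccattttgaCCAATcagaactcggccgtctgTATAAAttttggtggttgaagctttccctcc
H3c14, chr3:96246485-96246684, plus strand: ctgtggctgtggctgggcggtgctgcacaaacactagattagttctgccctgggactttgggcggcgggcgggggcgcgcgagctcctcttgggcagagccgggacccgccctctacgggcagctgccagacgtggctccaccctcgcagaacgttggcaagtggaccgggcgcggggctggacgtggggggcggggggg
H2ac21, chr3:96219685-96219884, plus strand: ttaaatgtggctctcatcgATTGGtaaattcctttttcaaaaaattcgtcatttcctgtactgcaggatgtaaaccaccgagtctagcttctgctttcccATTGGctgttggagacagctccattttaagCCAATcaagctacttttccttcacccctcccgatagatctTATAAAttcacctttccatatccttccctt
H2ac11, chr13:22042950-22043149, minus strand: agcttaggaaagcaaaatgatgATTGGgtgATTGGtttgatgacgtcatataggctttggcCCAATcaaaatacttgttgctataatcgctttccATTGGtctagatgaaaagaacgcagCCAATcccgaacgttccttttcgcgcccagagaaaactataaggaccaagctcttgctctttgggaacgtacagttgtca
H2ac15, chr13:21753913-21754112, minus strand: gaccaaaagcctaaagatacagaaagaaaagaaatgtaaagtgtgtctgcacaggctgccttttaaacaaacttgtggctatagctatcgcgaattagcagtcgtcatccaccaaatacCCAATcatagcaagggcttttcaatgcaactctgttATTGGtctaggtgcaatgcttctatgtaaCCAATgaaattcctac

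CCAAT, the letters to which the factor NF-Y binds, stood at least once within these 200 bases in 16 of the 18 histone genes called lower (88.9%), in 36 of the 45 histone genes present that had a promoter entry (80.0%) and in 8112 of 27025 promoters of all genes (30.0%). TATAAA, the core promoter element, stood in 5 of 18 (27.8%), 18 of 45 (40%) and 2854 of 27025 (10.6%). H3c13 and H3c10 held CCAAT at 2 places each, H2ac11 at 5, and H2ac21 and H2ac15 at 3, and H3c14 held neither motif in this window.

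H3c13, which encodes histone H3 on chromosome 3, was at 12.25, 12.03 and 12.48 at day 4 and at 10.91, 11.02 and 10.78 at day 7 (-1.35 ± 0.15, adjusted p = 0.000246). H3c10, on chromosome 13, was at 11.49, 11.34 and 11.67 and then at 10.24, 10.25 and 9.99 (-1.34 ± 0.16, adjusted p = 0.000246), and H3c14 fell by 1.48 ± 0.18. These 3 H3 genes were even within each day and passed in all 6 fits without 1 array. The H2A genes fell further but spread more at day 4. H2ac15 was at 12.95 on day 4 array 1 against 11.48 and 11.35 on arrays 2 and 3, and at 10.49, 10.01 and 9.85 at day 7 (-1.81 ± 0.41, adjusted p = 0.0103). The same array was highest for H2ac21 (10.22, 9.50 and 8.43, then 7.58, 7.14 and 7.52, difference -1.97 ± 0.44), for H2ac11 (-1.83 ± 0.37) and for H2ac12 (-1.78 ± 0.39), and without it H2ac15 (adjusted p = 0.0521) and H2ac21 (0.0507) missed the threshold. H2bc14, an H2B gene, fell by 1.01 ± 0.19. The linker histone gene H1f2 fell by only 0.46 ± 0.11, with arrays at 11.81, 11.76 and 11.72 and then 11.33, 11.33 and 11.24, and missed the threshold without day 7 array 3 (adjusted p = 0.0527).

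**Figure D2:**
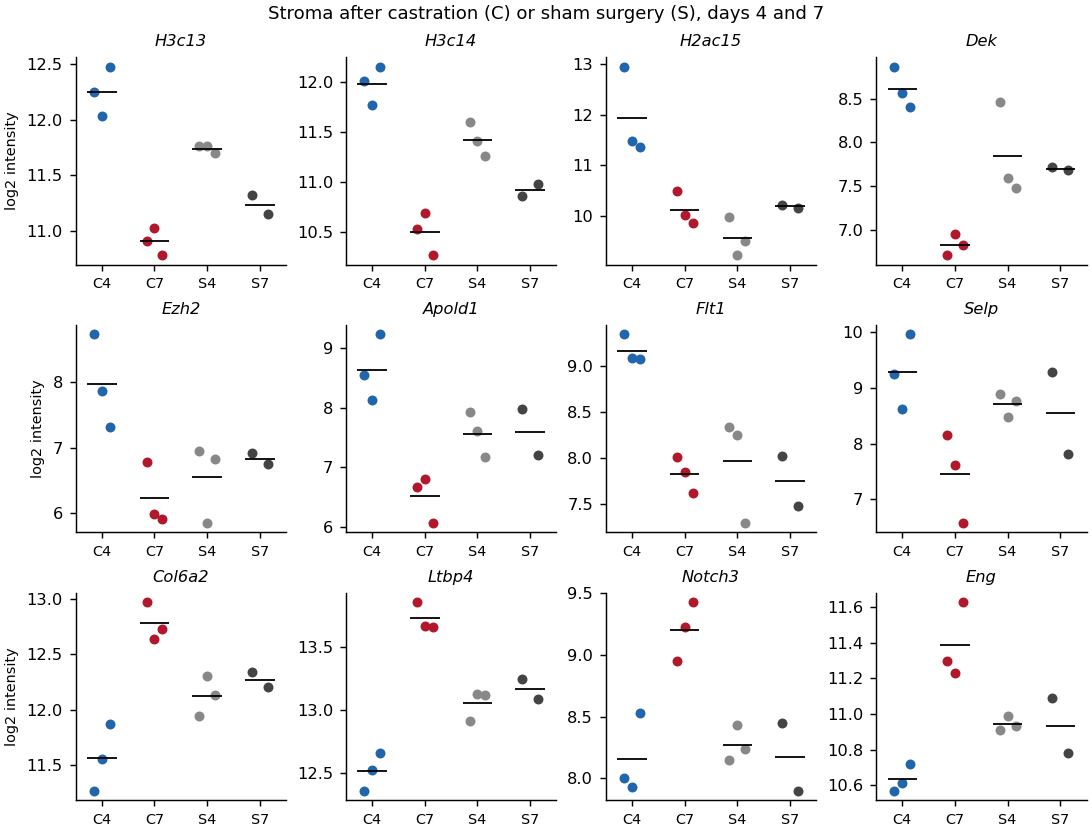
Level (y axis, log2 intensity) of 12 genes on each stromal array of castrated mice at day 4 (C4) and day 7 (C7), n = 3 each, and of sham mice at day 4 (S4, n = 3) and day 7 (S7, n = 2), with bars at group means. H3c13, H3c14, H2ac15, Dek, Ezh2, Apold1, Flt1 and Selp fall and Col6a2, Ltbp4, Notch3 and Eng rise from C4 to C7 without overlap, and the y axes differ between panels and do not start at 0.

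The same arrays carried thymocyte and cell cycle RNA, described by its values here. Histone means over the 37 genes were 10.61, 10.27 and 9.82 on day 4 arrays 1, 2 and 3 and 9.28 to 9.38 at day 7. With each array's thymocyte mean as a covariate, a fit added after the data were seen, 15 of 37 histone genes were called lower and the median difference was -0.54. H3c10 then differed by -1.30 (adjusted p = 0.000769), H2ac11 by -1.48, Ezh2 by -1.50 and Dek by -1.66. Without day 4 array 1 the calls were 9 of 37, with a median of -0.57, and without day 7 array 3 they were 10. Other genes of division passed at 0% (mitosis) and 5.26% (DNA replication), where 14% of all genes passed and 4.53% were called lower. None of 13 mitosis genes passed (median -0.51, but 0.05 without day 4 array 1 and -0.97, with 7 called lower, without day 4 array 3), with the centromere histone gene Cenpa at 11.51, 10.50 and 9.71 and then within the span of the day 4 arrays (-0.66 ± 0.30, adjusted p = 0.138), and only Cdt1, which licenses replication origins, passed among 19 replication genes, whose median of -0.26 was 0.07 without day 4 array 1 and -0.54, with 6 called lower, without day 4 array 3 (Cdt1 -0.85 ± 0.27, adjusted p = 0.0443). Cdt1 passed in 1 of the 6 fits without 1 array, that without day 4 array 3, and was at an adjusted p of 0.204 without day 4 array 1.

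None of 8 thymocyte markers (median -0.59), 6 pan-leukocyte markers (-0.34), 9 macrophage and granulocyte markers (-0.51) or 7 B lineage markers (0.11) passed the threshold, where 14% of all genes did. All day 7 arrays lay below all day 4 arrays for Elane, Lyz2 and Mzb1, and the other markers overlapped. Without day 4 array 1 the thymocyte median was -0.06, the pan-leukocyte median -0.09 and that of macrophage and granulocyte markers -0.28. Without day 4 array 3 the thymocyte and pan-leukocyte medians were -1.03 and -0.73, with 2 and 1 markers called lower. Cd3d, a chain of the T cell receptor complex, was at 11.61, 10.62 and 9.83 and at a mean of 9.82 at day 7 (-0.86 ± 0.37, adjusted p = 0.121). Lat, an adaptor of T cell receptor signalling, was at 10.42, 9.56 and 8.12 against 8.31 to 8.43. Both were high on day 4 array 1 and within or below the day 7 range on day 4 array 3. Of 7 MHC class II genes 3 were lower at day 7 and only H2-Aa was called (14.3%, against 14% of all genes called and 4.53% called lower). It fell by 1.43 ± 0.42 (adjusted p = 0.0318), and it passed in 1 of 6 fits without 1 array, that without day 4 array 3 (up to 0.102 without day 7 array 1). Of 20 interferon response genes 11 were lower at day 7 and 1 was called lower (5.00%, against 4.53% of all genes). That was Psmb8, an inducible proteasome subunit gene, which fell from 12.44, 12.15 and 12.22 to 11.45, 11.56 and 11.63 (-0.72 ± 0.16, adjusted p = 0.00895). The epithelial markers Krt18 (-0.36 ± 0.32) and Aire (0.78 ± 0.37) did not pass, nor did any other of the 13 epithelial markers tested.

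Endothelial transcripts were lower at day 7. Of 16 listed markers 14 were tested, 13 of them were lower (median -0.82), 5 passed as lower (35.7%, against 4.53% of all genes), and 10 had every day 7 array below every day 4 array (13.7% of all genes). Flt1, a receptor of VEGF, was at 9.34, 9.08 and 9.07 at day 4 and at 8.01, 7.85 and 7.62 at day 7 (-1.34 ± 0.31, adjusted p = 0.0115). Egfl7, a protein secreted by endothelium, fell by 1.36 ± 0.39, and Esam, an adhesion molecule of endothelial junctions, was at 10.89, 10.64 and 10.84 and fell to 9.69, 9.89 and 9.44 (-1.11 ± 0.32, adjusted p = 0.0293). Selp, the P-selectin that captures rolling leukocytes and progenitors, was at 9.25, 8.62 and 9.96 and then at 8.16, 7.61 and 6.58 (-1.83 ± 0.59, adjusted p = 0.0460). Pecam1, the endothelial CD31, fell by 1.04 ± 0.34 (adjusted p = 0.0475). The junction cadherin gene Cdh5 did not pass (-0.79 ± 0.38, adjusted p = 0.165), though its arrays did not overlap. In a bulk sort, fewer endothelial cells and less RNA per cell cannot be told apart.

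The exception was Eng, the TGF-beta co-receptor endoglin that fibroblasts also carry, which rose from 10.57, 10.61 and 10.72 to 11.30, 11.23 and 11.63 (0.75 ± 0.14, adjusted p = 0.00410) and passed in all 6 fits without 1 array. The falls were less firm. Selp and Pecam1 lost their calls whichever of the 6 arrays was left out (adjusted p up to 0.179 and 0.173), Flt1 only without day 7 array 3 (0.0516), Egfl7 in 4 of the 6 fits (up to 0.0983 without day 7 array 3) and Esam in 5 (up to 0.103 without the same array). The endothelial calls numbered 0 lower without that array, 1 without day 4 array 1, day 4 array 2 or day 7 array 1, and 1 with the thymocyte mean as a covariate. The median in these 6 fits was nearest to 0 without day 7 array 3, at -0.67. Array means over the list were 9.76 to 10.17 at day 4 and 9.02 to 9.36 at day 7, against 9.17 to 9.66 in sham stroma at day 4, 9.08 to 9.72 in sham at day 7, and 9.45 to 10.57 in untreated middle-aged stroma.

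**Figure D3:**
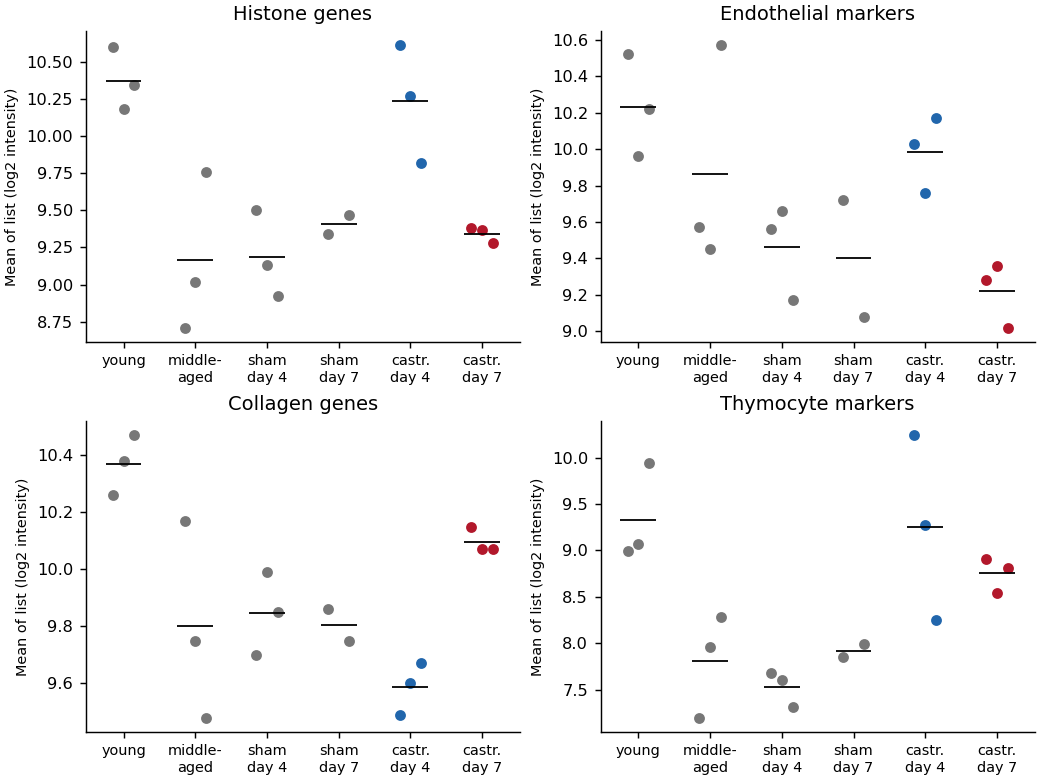
Each point is the mean of 1 stromal array (log2 intensity) over the tested members of a list, for the 6 stromal groups (n = 3, sham day 7 n = 2), with bars at group means. Castrated day 4 and day 7 (blue and red) do not overlap for histone genes (9.82 to 10.61 against 9.28 to 9.38), endothelial markers (9.76 to 10.17 against 9.02 to 9.36) and collagen genes (9.49 to 9.67 against 10.07 to 10.15), and overlap for thymocyte markers. The y axes differ between panels and do not start at 0.

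Matrix transcripts were higher at day 7. Collagens form the fibres and sheets of the extracellular matrix: types I and III the fibrils, type IV the basement membrane, type VI the beaded filaments around cells. Of 14 collagen genes listed and tested, 7 rose (50%, against 9.48% of all genes called higher), 0 fell, and the median difference was 0.56. Gathered by symbol after values had been seen, 10 of 23 collagen genes rose, with 11 others below the filter. Col6a2 was at 11.27, 11.55 and 11.87 at day 4 and at 12.97, 12.64 and 12.73 at day 7 (1.22 ± 0.18, adjusted p = 0.00134). The basement membrane chains Col4a2 (11.28, 11.64 and 11.83, then 12.45, 12.22 and 12.30) and Col4a1 rose by 0.74 ± 0.17 and 0.63 ± 0.16. Col15a1 of the basement membrane zone rose by 0.52 ± 0.13, Col18a1, the parent of endostatin, by 0.55, Col6a1 by 0.46, and the fibril chain Col1a1 from 10.71, 11.02 and 10.61 to 11.61, 11.39 and 11.60 (0.75 ± 0.21, adjusted p = 0.0269). Its partner chain Col1a2 was at -0.48 (adjusted p = 0.0935) and Col3a1 at -0.16 ± 0.25, so of these 3 fibril chains only Col1a1 passed. Col6a2 passed in all 6 fits without 1 array. Col4a2 failed without day 4 array 1 (adjusted p = 0.0537), Col4a1 without day 4 arrays 1 or 2 or day 7 array 1 (up to 0.0937), Col15a1 without day 4 array 2 or day 7 arrays 2 or 3 (up to 0.0664), and Col1a1 without day 4 arrays 1 or 3 or day 7 arrays 1 or 3 (up to 0.0877). Between 2 and 5 of the 14 passed as higher in those fits, and without day 4 array 3 1 passed as lower.

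Of 20 other matrix genes 5 rose (25%, against 9.48% of all genes) and 0 fell (median 0.33), and 0 passed without day 4 array 1 or 2. The adhesion-modulating tenascin gene Tnc rose by 0.81 ± 0.21, though 3 of its 5 probes went the other way, the basement membrane linker gene Nid2 rose by 0.77 ± 0.20, and the proteoglycan gene Bgn by 0.36 ± 0.12. Dcn, the proteoglycan decorin, was at 13.91, 14.04 and 14.40 and then 14.58, 14.39 and 14.56 (0.39 ± 0.12, adjusted p = 0.0389), with overlapping arrays, and turned to -0.07 when all its 4 probes were averaged. Thbs2, a matrix glycoprotein gene, rose by 0.55 (adjusted p = 0.0486). Tnc failed in 4 of the 6 fits without 1 array (up to 0.0943 without day 4 array 2), Nid2 in 3 (up to 0.0944 without day 7 array 1), Bgn in 5 (up to 0.203 without day 4 array 1) and Dcn in 4 (up to 0.158 without day 4 array 1). Ltbp4, which tethers latent TGF-beta to the matrix and was in none of the lists, rose from 12.36, 12.52 and 12.66 to 13.86, 13.67 and 13.66 (1.21 ± 0.14, adjusted p = 0.000246). None of 21 matrix remodelling genes passed (median 0.15), where 14% of all genes did. The collagen-crosslinking enzyme gene Plod2 was nearest (0.57 ± 0.20, adjusted p = 0.0639).

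Some fibroblast and pericyte markers rose as well. Of 14 fibroblast markers tested 5 rose (35.7%, against 9.48% of all genes), of which Col1a1 and Dcn are matrix genes given above, and only 1 rose without day 4 array 1, day 7 array 1 or day 7 array 3. The difference of largest size in the list was that of the actin-severing protein gene Gsn, at 12.69, 13.01 and 12.51 and then 12.12, 11.23 and 11.35, which did not pass (-1.17 ± 0.44, adjusted p = 0.0823). Thy1, a fibroblast surface glycoprotein that thymocytes also carry, was at 12.68 to 13 at day 4 and rose to 13.38, 13.47 and 13.41 (0.56 ± 0.12, adjusted p = 0.00820) and passed in all 6 fits without 1 array. Pdgfrb, the PDGF receptor of mural cells and fibroblasts, rose by 0.68 ± 0.18 and Pdpn, the podoplanin of fibroblasts, by 0.33 ± 0.10, with 2 and 1 of those 6 fits passing (adjusted p up to 0.0974 without day 4 array 1 and 0.162 without day 4 array 2). Pdgfra did not pass (0.39 ± 0.20, adjusted p = 0.182). Of 8 pericyte and smooth muscle markers 3 were called (37.5%, against 14% of all genes). Notch3, the Notch receptor of mural cells, was at 8.0, 7.93 and 8.53 and rose to 8.95, 9.23 and 9.43 (1.05 ± 0.22, adjusted p = 0.00761). Abcc9, a potassium channel subunit gene, rose by 0.83 ± 0.23, with 1 of 2 probes rising. Rgs5, a G protein regulator of pericytes, fell by 1.39 ± 0.36, from 6.43, 7.38 and 7.15 to 5.21, 6.09 and 5.49. Those day 7 levels lay below the filter level of 6.73, so the size of the fall is uncertain. Acta2, the smooth muscle actin gene, was at -0.12 ± 0.23. Notch3 passed in all 6 fits, Rgs5 in 3 (up to 0.0864 without day 4 array 2) and Abcc9 in 2 (up to 0.0965 without day 4 array 1). The axon guidance and VEGF co-receptor gene Nrp1 rose by 0.70 ± 0.16, the nerve growth factor receptor gene Ngfr by 0.79 ± 0.22, and the Wnt target gene Axin2 by 0.74 ± 0.18. Nrp1 failed without day 4 array 2 (0.0531) or day 7 array 3 (0.0518), Axin2 without day 4 array 1 (0.0635) or day 7 array 3 (0.0506), and Ngfr in 4 fits (up to 0.117 without day 4 array 2).

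The called genes of the TGF-beta superfamily were mostly falls. Activins and BMPs act through SMAD proteins, follistatin traps activins outside the cell, and ID proteins are targets that block basic helix-loop-helix factors. Of 16 genes tested 5 fell and 1 rose (37.5%, against 14% of all genes), while the median was 0.17, with 10 of 16 higher at day 7, and -0.09 with the probes of a gene averaged. The number called lower was 1 without day 7 array 3. The activin subunit gene Inhba was at 9.21, 9.34 and 10.21 at day 4 and at 8.83, 8.74 and 7.46 at day 7 (-1.24 ± 0.32, adjusted p = 0.0185). Fst, which encodes follistatin, fell beside it, from 8.71, 9.56 and 9.54 to 8.25, 8.33 and 7.85 (-1.13 ± 0.29, adjusted p = 0.0184). The target gene Id3 fell from 9.78, 9.99 and 9.92 to 8.96, 9.33 and 8.94 (-0.82 ± 0.14, adjusted p = 0.00280), Id1 by 0.81, and the ligand gene Tgfb2 by 0.53 ± 0.14. Fstl1, a secreted relative of follistatin, rose by 0.41 (adjusted p = 0.0448). The ligand gene Bmp4 was at 0.21 ± 0.12 (adjusted p = 0.236). Id3 passed in all 6 fits without 1 array. Inhba failed without day 4 array 3 (0.0674) or day 7 array 3 (0.0953), Fst without these or day 4 array 2 (0.0520, 0.0827 and 0.0795), and Tgfb2 in 4 of the fits (up to 0.0799 without day 4 array 2).

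Of 13 VEGF and angiogenesis genes 4 were called (30.8%, against 14% of all genes). Flt1 and the vasodilator peptide gene Adm fell (-0.72 ± 0.20 for Adm). Nrp1 and the lymphatic growth factor gene Vegfc rose (0.49 ± 0.15 for Vegfc), while Vegfa was at -0.10 ± 0.19. Adm failed in 4 and Vegfc in 5 of the 6 fits without 1 array (up to 0.0807 without day 7 array 3 and 0.171 without day 4 array 1).

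Immediate early factors, which answer growth signals and also cell handling, and clock genes each held some falls. Of 20 immediate early genes 5 fell (25% of those tested, against 4.53% of all genes) and Egr1 alone rose, from 13.50, 13.79 and 13.70 to 14.51, 14.27 and 14.40 (0.73 ± 0.15, adjusted p = 0.00663). Klf6 was at 13.13, 13.05 and 13.02 and then 12.73, 12.18 and 11.80 (-0.83 ± 0.19, adjusted p = 0.00926). Klf4 fell by 0.70 ± 0.17, the AP-1 subunit gene Fosb fell by 0.78 ± 0.19, Myc fell by 1.03 ± 0.26 and Jund fell by 0.93 ± 0.26. Without day 7 array 3 none of the 5 passed, and without day 4 array 3 2 did. Klf6, Klf4 and Fosb missed the threshold without day 7 array 3 (0.0518, 0.0506 and 0.0828), and Fosb also without day 4 array 3 (0.0545). Nfkbia, the inhibitor of NF-kB that NF-kB itself induces, fell by 0.81 ± 0.19 and the adhesion molecule gene Vcam1 rose by 0.48 ± 0.14, with Nfkbia failing without day 7 array 3 (0.0521) and Vcam1 in 4 of 6 fits (up to 0.161 without day 7 array 1). Of 11 clock genes 3 fell (27.3%, against 4.53% of all genes), 6 were higher, and the median was 0.01. Nr1d1, the repressor REV-ERB alpha, was at 6.64, 6.86 and 6.87 and then at 5.29, 5.23 and 5.16 (-1.56 ± 0.31, adjusted p = 0.00622), and passed in all 6 fits. Its day 7 levels lay below the filter level of 6.73, so the size of its fall is uncertain. The clock output gene Dbp fell by 1.05 ± 0.27 and the repressor gene Bhlhe40 by 0.60 ± 0.15, each failing in 2 of the 6 fits (up to 0.0797 without day 7 array 1 and 0.0858 without day 7 array 3). Per2 was at 0.56 (adjusted p = 0.153). The labels give no time of day for any group.

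Growth factors and chemokines by which stroma acts on epithelium and thymocytes did not pass. None of 11 epithelial growth factor genes did, where 14% of all genes passed. Fgf7 and Fgf10, ligands of FGFR2b on epithelium, were at -0.01 ± 0.24 and 0.18 ± 0.21, Hgf at 0.36 ± 0.29, Igf1 at -0.11 ± 0.21, Igf2 at -0.10 ± 0.15 and the lymphocyte survival factor gene Il7 at 0.13 ± 0.16. The heparin-binding EGF gene Hbegf was nearest to the threshold, with day 4 arrays at 7.48, 7.91 and 9.35 and day 7 arrays at 7.59, 7.19 and 6.20 (-1.25 ± 0.43, adjusted p = 0.0580). None of 18 chemokine genes passed either. Ccl19 was at -0.14 ± 0.18, Cxcl12 at -0.11 ± 0.24, Cxcl13 at -0.54 ± 0.23 and Ccl21a at 0.34 ± 0.52, where day 7 array 2 stood apart at 12.23 against 10.38 and 10.72. The acute-phase pentraxin gene Ptx3 was lower on every day 7 array (9.54, 10.49 and 10.38, then 9.13, 9.52 and 9.11) but did not pass (-0.88 ± 0.38, adjusted p = 0.125). Wnt10a (-0.32 ± 0.24), Rspo3 (0.05 ± 0.22), Flt3l (0.28 ± 0.24), Il33 (0.10 ± 0.17), Lifr (0.64 ± 0.22) and Ltbr (0.35 ± 0.20) did not pass. Of 12 androgen and glucocorticoid response genes 0 passed, Fkbp5 at 0.20 ± 0.14 and Tsc22d3 at -0.03 ± 0.17. With 3 arrays a day, a p above the threshold does not show that these levels were equal.

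**Figure D4:**
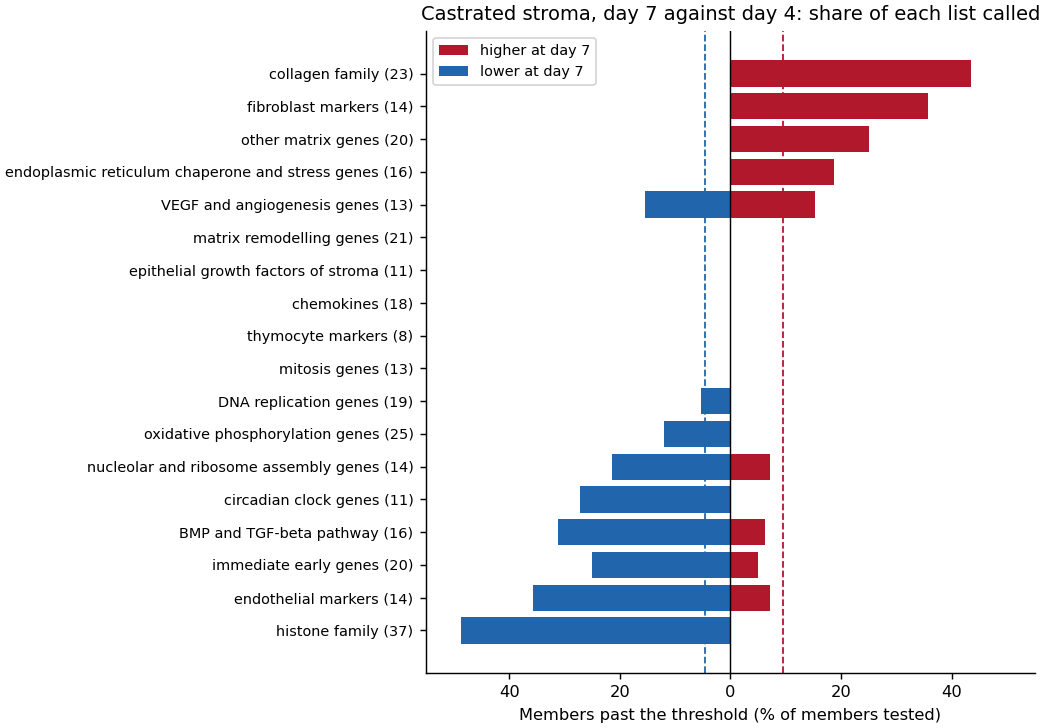
For 18 gene lists, with the number of members tested in parentheses, bars give the share of members called higher (red, to the right) or lower (blue, to the left) at day 7, in percent of members tested. Dashed lines mark the shares of all 7771 genes, 9.48% higher and 4.53% lower, and the bar of histone genes reaches 48.6% to the left.

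Housekeeping lists held called genes in both directions. Of 14 nucleolar and ribosome assembly genes 4 were called (28.6%, against 14% of all genes), 3 lower and 1 higher. The falls were those of Gnl3 above, the growth regulator gene Pa2g4 (-1.01 ± 0.22, adjusted p = 0.00830) and the small nucleolar particle gene Nop56 (-0.73 ± 0.20), and Mybbp1a rose by 0.54 ± 0.16. Of 25 oxidative phosphorylation genes 3 fell (12.0%, against 4.53% of all genes), 22 were lower, and 8 had all day 7 arrays below all day 4 arrays (13.7% of all genes). The array means of that list were 11.25 to 11.29 at day 4 and 10.83 to 11.10 at day 7, those of the nucleolar list 9.0 to 9.15 and 8.80 to 8.94. The 3 were Ndufb5 of complex I (-0.94 ± 0.22), and the ATP synthase genes Atp5a1 (-0.92 ± 0.24) and Atp5e (-1.03 ± 0.31). Chaperones of the endoplasmic reticulum rose in 3 of 16 cases (18.8%, against 9.48% of all genes), with a list median of -0.01 and 0 rising without day 4 array 1 or day 7 array 1. Hsp90b1 rose by 0.52 ± 0.13, Pdia3 by 0.40 ± 0.12 and Pdia4 by 0.53 ± 0.16, and 0 fell. The haem oxygenase gene Hmox1 rose by 0.98 ± 0.24, with day 7 array 3 (9.77) inside the day 4 range. In its list of 16 antioxidant and metallothionein genes 1 rose and 1 fell (12.5% called, against 14% of all genes), and 11 were lower at day 7. The fall was that of Gstm1 (-0.51 ± 0.15, adjusted p = 0.0336), which passed in 0 of the 6 fits without 1 array. Among 14 hypoxia and glycolysis genes the glycolytic enzyme gene Pkm rose by 0.47 ± 0.10 and Adm fell (14.3% called, against 14% of all genes), and 9 were lower at day 7. The lipid droplet gene Plin2 fell by 0.76 ± 0.20, the 1 called of 7 lipid and fuel-use genes (14.3%). The globin gene Hba-a1 fell by 0.38 ± 0.10, the 1 called of 4 erythroid markers tested. The other 3 were higher at day 7, and the list median was 0.48. Pa2g4 and Pkm passed in all 6 fits without 1 array, Ndufb5 in 5, Hsp90b1 in 4, Hmox1 in 3 (up to 0.0723 without day 7 array 1), and Atp5a1, Nop56, Pdia3, Plin2 and Hba-a1 in 2 (up to 0.0673 without day 4 array 1, 0.0855 without day 7 array 2, 0.132 without day 7 array 1, 0.0848 without day 4 array 2 and 0.109 without day 7 array 3). Atp5e passed in 1 (up to 0.144 without day 7 array 1), and Pdia4 and Mybbp1a in none. No oxidative phosphorylation gene passed without day 7 array 1.

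Short genes fell and long genes rose more often. The span from start to end in RefSeq had a median of 12962 bases among genes called lower, 29033 among those called higher and 21376 over all genes. Over 4 equal bins from the shortest to the longest genes, the share called lower went from 7.26% to 4.33%, 4.33% and 2.21%, and the share called higher from 4.63% to 9.58%, 11.7% and 12.0%. The mean of the longest bin less that of the shortest, relative to all 17 stromal arrays, was -0.21, -0.22 and -0.21 on the day 4 arrays and 0.23, -0.06 and -0.05 on the day 7 arrays, of which array 1 stood apart. In sham stroma it ran from -0.13 to 0.08 at day 4 and from -0.03 to 0.03 at day 7. The part of gene length in the differences of single groups was not tested.

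Between the same days in sham stroma, 0 of 7771 genes (0%) passed in limma, with 248 at an unadjusted p under 0.05, and 797 had such a p for the difference between castrated and sham day differences, of which 0 (0%) passed after adjustment. Sham had 2 arrays at day 7, and its differences had a median SE of 0.20 against 0.18 in castrated stroma. The genes called higher in castrated stroma had a median of 0.65 there and 0.10 in sham, where 76.5% shared the sign, and those called lower had -0.79 and -0.19, where 77.6% shared it, against 61.5% of all genes. No array entered both day differences. Over all genes the median size of the difference was 0.26 in castrated and 0.12 in sham stroma. Across genes, which are not independent replicates, the castrated and sham day differences correlated at r = 0.27.

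Several lists had medians of opposite sign in castrated and sham stroma. Those of thymocyte markers were -0.59 and 0.60, and those of pan-leukocyte markers -0.34 and 0.67. Mitosis genes were at -0.51 and 0.42, and DNA replication genes at -0.26 and 0.22. The 37 histone genes also had medians of opposite sign, -0.76 in castrated and 0.24 in sham stroma, where 28 of 37 were higher at day 7. Among them H2ac15 differed by 0.62 ± 0.46 in sham, a difference of differences of -2.44 ± 0.62 (unadjusted p = 0.000996, adjusted p = 0.229). H3c13 fell in castrated stroma and was also lower in sham (-0.50 ± 0.17), as was H3c14 (-0.51 ± 0.20). The 23 collagen genes had a median of 0.56 in castrated and -0.04 in sham stroma, and endothelial markers -0.82 and -0.08. Among the differences of smallest p between castrated and sham were those of H1f2 (-0.88 ± 0.17), Dek (-1.65 ± 0.33) and Ltbp4 (1.10 ± 0.21), each at an adjusted p of 0.0844. In sham stroma Egr1 was at 0.51 ± 0.17 and Ndufb5 at -0.75 ± 0.24, neither past the threshold. Against sham on the same day, 490 genes (6.31%) were called at day 4 and 34 (0.438%) at day 7. Medians of castrated minus sham, which share arrays with the day difference, were 0.90 on day 4 and -0.17 on day 7 for histone genes. Those of endothelial markers were 0.53 and -0.10, and those of the 23 collagen genes -0.24 and 0.31. Several other lists stood further above sham at day 4. Thymocyte markers were at 1.90 and 0.77, mitosis genes at 1.70 and 0.92, and pan-leukocyte markers at 1.66 and 0.60. DNA replication genes were at 0.95 and 0.33.

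**Figure D5:**
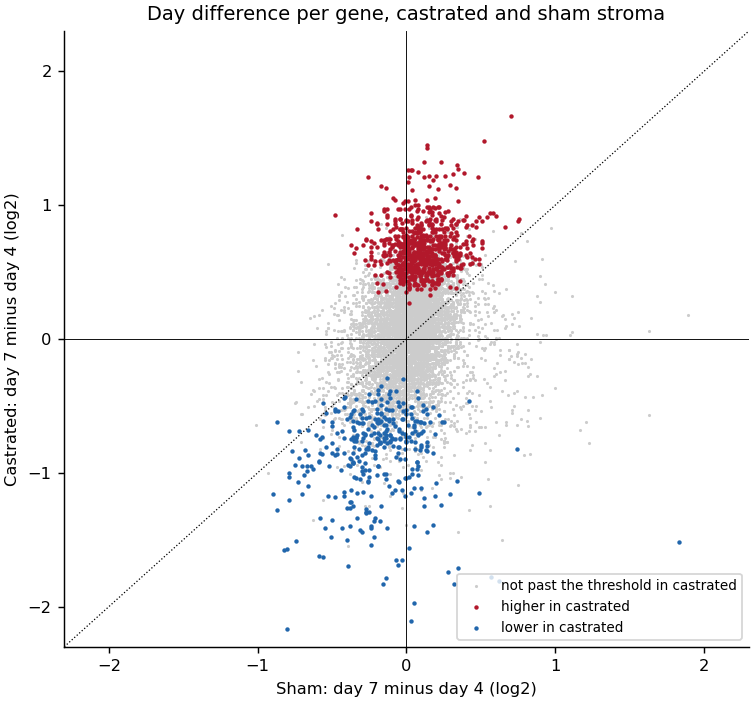
Day 7 minus day 4 (log2) of each of 7771 genes in sham stroma (x axis) and castrated stroma (y axis), with the dotted line at equality. Called genes (red higher, blue lower) were chosen by their castrated difference, so their spread along that axis follows from the choice. Their medians on the sham axis were 0.10 and -0.19.

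The epithelial fraction of castrated mice, fitted with the stroma on all 41 arrays over 8487 genes, gave 0 calls (0%) between the same days, and 309 genes (3.64%) had different day differences in the fractions. Each fraction appears to have been normalized separately before deposit. H3c10 and H3c13 were among the genes of smallest p, at 0.29 ± 0.15 and 0.33 ± 0.21 in epithelium against -1.34 and -1.35 in stroma (differences of 1.63 ± 0.21 and 1.68 ± 0.29, adjusted p = 7.33e-05 and 0.00538). Ltbp4 was at -0.69 ± 0.23 in epithelium against 1.21 in stroma (adjusted p = 0.00538 for the difference). Of the genes called higher in stroma 34.3% had the same sign in epithelium and of those called lower 40.1%, against 42.4% of all genes tested in both. The count of 309 rested on single arrays, since it was 21, 34 and 722 without day 7 epithelial arrays 1, 2 and 3, 1146, 26 and 66 without day 4 epithelial arrays 1, 2 and 3, 130, 134 and 279 without day 4 stromal arrays 1, 2 and 3, and 88, 205 and 95 without day 7 stromal arrays 1, 2 and 3.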

How the data were processed

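The thymus was sorted into TEC and nonTEC cells, RNA was extracted and labelled as biotin cRNA, and 41 Illumina mouse arrays were hybridised, per the labels' protocols. The deposited values are on a scale read here as log2 from its range. Nearly equal quantiles within each fraction point to normalization before deposit, apparently separately by fraction. The submitters' processing notes name limma, with no version or role. Other upstream steps: not given in the sources used here. Of 24671 probes, 20825 had 1 listed gene, 11 had several and 3835 had none, and 20799 were matched to a current symbol by gene ID. Of a gene's probes that of highest mean was used, and 7771 of 11704 genes with at least 1 group mean above 6.73, the median of all values, were tested. A linear model with a mean for each of 6 groups was fitted to all 17 nonTEC arrays with limma 3.58.1 in R 4.3.3 (eBayes with a trend), so that the groups share 1 estimate of spread, with two-sided p-values adjusted by Benjamini-Hochberg over all genes tested and a threshold of 0.05. Epithelium and stroma were compared in a fit of all 41 arrays. A ± value after a difference is its standard error. Genes named were the 12 of largest difference per direction among called genes whose arrays did not overlap, leaving out clone-like symbols, up to 4 called members of smallest p per list (2 where none was called), a list of fixed genes and up to 8 of smallest p in each difference of differences. Others, such as further list members, were chosen after their values were seen. This comparison, whose arrays the labels define, and the lists were chosen with earlier results of these data known. The fit was tested on simulated data. Alternatives covered the filter, scaling, probe rule, trend, array weights, replicate block, arrays fitted, and each array left out. Leaving out the other stromal arrays and the thymocyte covariate were added after seeing the data. Epcam was not analysed here.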

Additional observations from a re-analysis of the deposited data

Results flagged for a closer look

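For 8 genes the day 7 minus day 4 difference in castrated mice differed between the fractions by the test of that difference in limma, which was fitted on all 41 arrays. The fractions appear to have been normalized separately, and the values are given as epithelial minus stromal log2 differences. The replication-dependent histone genes H3c10 (1.63 ± 0.21, adjusted p = 7.33e-05) and H3c13 (1.68 ± 0.29, adjusted p = 0.00538) fell in stroma and were at 0.29 and 0.33 in epithelium. Pim1, a survival kinase gene, was at 0.98 in epithelium and -1.63 in stroma (2.61 ± 0.48, adjusted p = 0.00684). Ccnl1, a cyclin of RNA splicing, was at 0.02 and -1.77 (1.79 ± 0.33, adjusted p = 0.00684). Pim1 averaged 5.58 at day 4 and 6.56 at day 7 in epithelium, and 6.11 at day 7 in stroma. These levels lay below the filter level of 6.73, so the sizes of the Pim1 differences are uncertain.

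Ltbp4, the latent TGF-beta binding protein gene, was at -0.69 in epithelium and 1.21 in stroma (-1.90 ± 0.33, adjusted p = 0.00538). Vps11, which encodes a subunit of endosome tethering complexes, was at -0.42 and 0.90 (-1.32 ± 0.21, adjusted p = 0.00189). Tmem260 was at -0.39 and 0.90 (-1.29 ± 0.24, adjusted p = 0.00684), and the RNA helicase gene Dhx34 at -0.57 and 0.72 (-1.30 ± 0.24, adjusted p = 0.00684). Dhx34 averaged 6.65 in epithelium at day 7, below the filter level of 6.73, so the size of its difference is uncertain. Groups of 3 arrays are too small for the test of a single outlying array.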

How the results depend on the processing

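With 3 arrays a day, the number of calls was the least stable value. The 1089 calls became 3158 with array weights and 664 with all 41 arrays fitted, and ranged from 433 to 1607 over the 17 fits that left out 1 stromal array. Those without 1 castrated array ranged from 433 to 1027. The counts with no filter on dim probes (1132), a stricter filter (860), quantile normalization (980), centred arrays (926), the mean of all probes (871) and the thymocyte covariate (763) stayed within 1.5 times the main one. Sham stroma went from 0 calls to 4 with array weights and 1 with only the arrays compared. The castrated minus sham difference went from 0 calls to 634 with array weights, 2 with only the arrays compared, 2 with all 41 arrays, and 0 to 2 with 1 array left out. The 309 calls between epithelium and stroma became 148 after quantile normalization, 197 with centred arrays, 3769 with array weights, 72 with only the arrays compared, and 21 to 1146 with 1 array left out. The cause of these changes was not tested.

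Dcn turned to -0.07 with the mean of all probes, as did the median of the BMP and TGF-beta genes (-0.09). Several list medians turned sign with 1 array left out, among them those of mitosis (up to 0.05) and DNA replication genes (up to 0.07) without day 4 array 1. The lists of cortical and medullary epithelial, B lineage, MHC class II, lipid, androgen response and chaperone genes also gave medians of both signs. That of interferon response genes ran from -0.14 to 0.05 (highest without day 4 array 2), of clock genes from -0.22 (without day 7 array 1) to 0.09, and of Notch genes from -0.02 (without day 7 array 2) to 0.26. Of the 91 named genes that were called, 87 stayed called with the same sign after quantile normalization, 82 with centred arrays, 50 with all 41 arrays, and 45 to 72 without 1 castrated array. Deviations of same-numbered arrays correlated at 0.07, -0.09 and -0.06, and those of other pairs at -0.14 to 0.18. With 3 arrays a group these values cannot show whether the numbers pair the arrays, which the labels do not say. The replicate block gave 995 calls.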
